A study of Homo sapiens with 6 samples.

Results

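The 6 conventional actin genes, the transcription factor SRF and 3 smooth muscle genes that SRF is known to drive (TAGLN, CNN1 and MYL9) were examined in cholangiocarcinoma (CCA) cells treated with isolinderalactone (ILL), a plant sesquiterpene lactone. These 10 genes were taken by symbol from the 19470 genes of the count table. They were selected because ACTG2 and ACTB had been measured as higher with ILL in these same libraries, so their ILL to control differences are given as a description, and whether they met the rule for a call supports nothing. The cells were HCCC9810, an established human CCA cell line with a wild type genotype by its label. One group received 20 μM ILL for 24 h, and the control group received the vehicle DMSO for 24 h. Each group had 3 libraries of total RNA, and nothing in the labels says that they came from separate cultures, so p-values measure the spread between these libraries, which may be technical.

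Actin is the protein of microfilaments. ACTB and ACTG1 encode the cytoplasmic forms found in nearly every cell, ACTA2 and ACTG2 the smooth muscle alpha and gamma forms, ACTA1 the skeletal muscle form and ACTC1 the cardiac form. Unpolymerised actin holds the coactivators MRTFA and MRTFB away from the nucleus. When actin is drawn into filaments, they are released and act with SRF on CArG boxes, short A/T-rich elements flanked by CC and GG that lie near many actin and contractile genes. SRF also works with the ternary complex factors (TCFs), which relay MAP kinase signals to immediate early genes.

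Total counts ranged from 34282764 to 37758569 per library. Replicate libraries differed from each other beyond sampling noise (chi-square per degree of freedom from 5.09 to 11.5), and each was kept as 1 replicate. The quasi-likelihood test of edgeR was run on the 13066 genes left by a filter on low counts, and a gene was called at a Benjamini-Hochberg adjusted p under 0.05 with a fold change above 2 or under 0.5. By this rule 12.5% of tested genes were higher with ILL and 11.4% were lower, and the median log2 fold change was -0.00. CPM values are counts relative to the TMM-scaled library size. FPKM are counts divided by gene length and by the plain library total, without TMM scaling, and were used wherever genes were compared with each other. In bulk RNA, a change in the number of cells that carry a transcript and a change in RNA per cell cannot be told apart.

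The CArG boxes of the promoters are shown first, since they are the sequences through which SRF is known to act. RefSeq promoter windows on GRCh38.p14, each with 250 bases before and 50 bases after an annotated start, were listed for 7 of the 10 genes. ACTB, TAGLN and MYL9 had no entry. A CArG box on either strand was found in the windows of 5 of these 7 genes, against 454 of all 35116 promoters (1.29%) and 170 of the 10482 tested genes with a window (1.62%). Each sequence below is written 5′ to 3′ on the strand of its gene, with the CArG box in capitals.
ACTG2 at -110: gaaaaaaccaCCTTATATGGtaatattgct
ACTG2 at -73: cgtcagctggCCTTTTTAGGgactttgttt
ACTG1 at -94: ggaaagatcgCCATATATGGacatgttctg
ACTA1 at -97: tgcccaacacCCAAATATGGctcgagaagg
ACTC1 at -109: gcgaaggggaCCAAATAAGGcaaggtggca
SRF at -30: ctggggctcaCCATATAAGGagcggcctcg
SRF at -10: agcggcctcgCCATAAAAGG

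Positions count from the RefSeq start to the first base of the box. The ACTG2 stretches lie at chr2:73892888-73892917 and chr2:73892925-73892954 on the plus strand. Both fall inside the ACTG2 gene of GENCODE release 29, in which the box at -110 is intronic to a longer transcript and the last base of the box at -73 is the first of an annotated untranslated exon. The ACTG1 stretch is chr17:81512874-81512903 on the minus strand, where 8 bases of the box overlap an annotated 5′ untranslated exon. The ACTA1 stretch, chr1:229434172-229434201 on the minus strand, overlaps no annotated gene. The ACTC1 stretch, chr15:34795639-34795668 on the minus strand, lies in its 5′ untranslated exon in GENCODE and opposite the gene AC087457.1. The SRF stretches are chr6:43171229-43171258 and chr6:43171249-43171268 on the plus strand, just before the annotated gene. The 2 windows of ACTA2 and the window of CNN1 held no box, which says only that these letters are not in them. A box was therefore listed in genes whose counts differed widely between the groups, such as ACTG2, and in genes with almost no reads in either, such as ACTA1 and ACTC1.

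**Figure D1:**
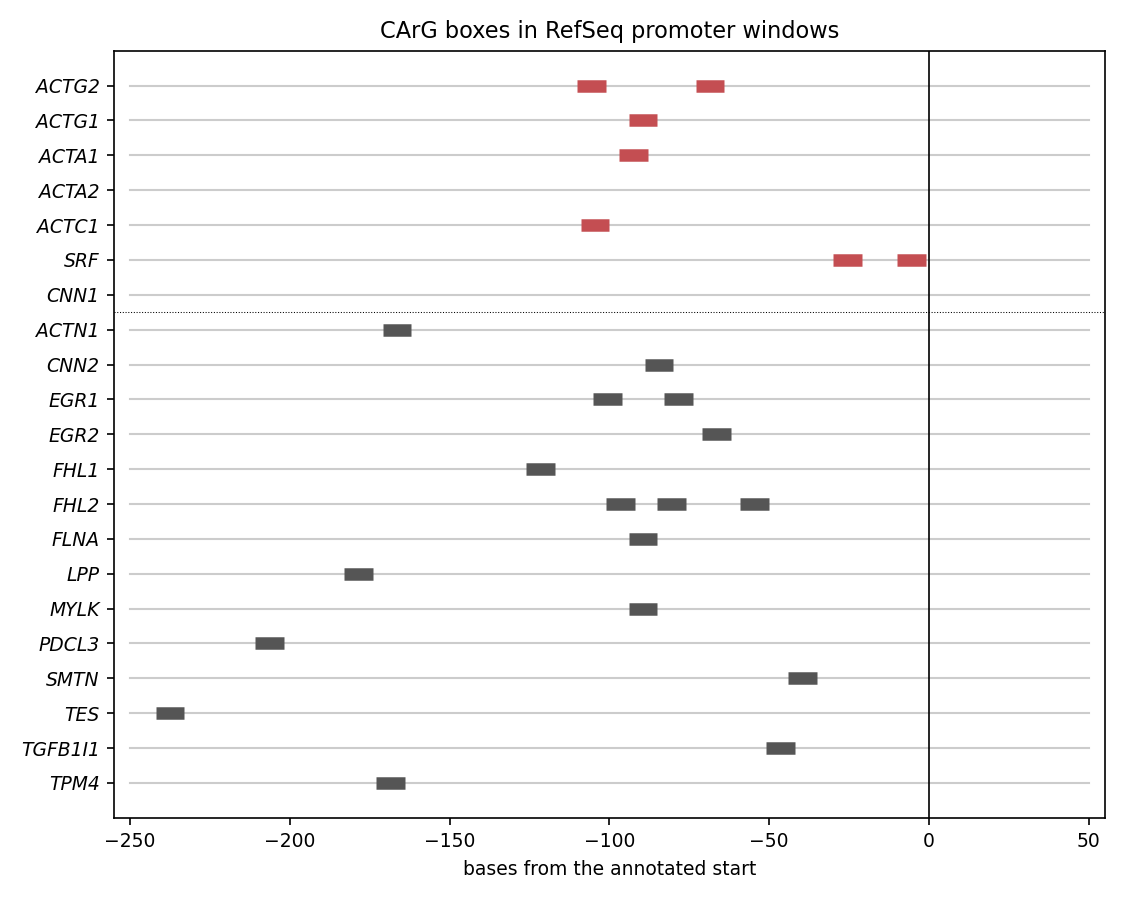
Position of CArG boxes (thick bars) in RefSeq promoter windows (thin lines) for the 7 genes with a window (red, above the dotted line) and for the genes of 6 related lists that hold a box (grey); the x axis is the distance in bases from the annotated start (vertical line), and all windows of a gene are overlaid. In ACTG2, ACTG1, ACTA1 and ACTC1 the boxes start between -110 and -73, while both SRF boxes start within the last 30 bases before the start and no box is drawn for ACTA2 and CNN1.

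Of the 10 genes, 7 passed the filter on low counts. ACTG2 passed it through its ILL libraries, since no control library had more than 20 reads. ACTG2, ACTB, ACTG1, TAGLN and MYL9 met the rule for a higher call, none met it for a lower call, and ACTA2 and SRF met neither. These counts stand beside the 12.5% and 11.4% above, and nothing is read from them because the genes were chosen on this contrast. The median log2 fold change of the 7 was 1.28. ACTA1, ACTC1 and CNN1 had at most 8 reads in any library and were not tested.

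SRF, the regulator itself, lies on chromosome 6 of GRCh38 from 43171299 to 43181507. It had 74.1, 75.2 and 74.3 CPM in the control libraries and 141.0, 164.0 and 139.0 CPM in the ILL libraries. All ILL libraries lay above all controls, with the second ILL library the highest. The log2 fold change was 0.99 (standard error 0.06), a 1.98-fold difference that sits just under the fold cutoff. SRF crossed the cutoff at 1.02 without ILL replicate 1 and at 1.03 without ILL replicate 3, and met it with at least 10 counts in every library, where ACTG2 could not be tested.

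ACTB, the cytoplasmic beta actin on chromosome 7 from 5527147 to 5563784, had 322340, 297601 and 306350 reads in control libraries and 570539, 609128 and 611793 reads in ILL libraries. It was the gene with the most reads in 2 of 3 control libraries, second in the other, and first in all ILL libraries. Its level was 8480 ± 181 CPM (SD, n = 3) in controls and 17200 ± 757 CPM (SD, n = 3) with ILL. The log2 fold change was 1.02 (standard error 0.04), or 2.02-fold, just above the fold cutoff. The call was lost without control replicate 1, at 0.99 without ILL replicate 2 and at 0.95 both with scaling by library size only and in the 3 fits of limma on FPKM.

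ACTG1, the cytoplasmic gamma actin on chromosome 17 from 81509971 to 81523847, had 177804, 161308 and 171586 reads in controls and 384245, 397332 and 404748 with ILL. Its rank by reads moved from 5, 4 and 5 in the control libraries to 2 in each ILL library. The level went from 4670 ± 154 to 11400 ± 338 CPM (SD, n = 3 each), a log2 fold change of 1.28 (standard error 0.04) and a 2.43-fold difference. ACTB and ACTG1 together make nearly all actin mRNA in these cells, so the sum over the 6 actins followed them. Summed as 1 gene, the 6 actins had a log2 fold change of 1.12 (standard error 0.04), and they took 1.35 ± 0.0273% of all counts in controls and 2.79 ± 0.092% with ILL (SD, n = 3 each).

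ACTG2, the smooth muscle gamma actin of gut and other visceral muscle, lies on chromosome 2 from 73892314 to 73919865. It had 20, 6 and 8 reads in the control libraries and 793, 955 and 948 reads in the ILL libraries. Each ILL library thus lay far above every control, and control replicate 1 had more ACTG2 reads than the other controls together. The log2 fold change was 6.36 (standard error 0.21), or 82.3-fold, and it was 6.99 without control replicate 1 and 6.08 without control replicate 2. With so few control reads, the size of the fold depends on these libraries and on the scale, and on log2(FPKM + 1) the difference was 3.88. In absolute terms ACTG2 reached 25.8 ± 2.78 CPM with ILL (SD, n = 3), far below ACTB and ACTG1.

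ACTA2, the smooth muscle alpha actin widely used as a marker of smooth muscle and myofibroblasts, lies on chromosome 10 from 88935074 to 88991339. It had 58, 63 and 123 reads in controls and 73, 105 and 104 with ILL. The groups overlapped, and the highest library was a control. The log2 fold change was 0.26 (standard error 0.31) and ranged from 0.03 without control replicate 1 to 0.72 without control replicate 3. ACTA2 and ACTG2 therefore stood in opposite order in the groups. The ratio of ACTA2 to ACTG2 FPKM was 2.41, 8.72 and 12.8 in the control libraries and 0.0764, 0.0913 and 0.0911 in the ILL libraries.

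The striated muscle actins were close to the limit of detection. ACTA1, on chromosome 1 from 229431245 to 229434098, had 8, 5 and 2 reads in controls and 8, 1 and 1 with ILL. ACTC1, on chromosome 15 from 34788095 to 34795726, had 0, 5 and 3 reads in controls and 7, 1 and 7 with ILL. Both overlapped between groups, and no difference was detectable at this depth. CNN1, the smooth muscle calponin that binds actin and dampens myosin activity, was as low, with 0, 4 and 1 reads in controls and 7, 1 and 0 with ILL on chromosome 19 from 11538717 to 11550323.

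The other pair of smooth muscle genes differed about equally. TAGLN (transgelin, or SM22 alpha, an actin-binding protein) on chromosome 11 from 117199321 to 117204782 had 9712, 9001 and 10005 reads in controls and 74459, 71622 and 76790 with ILL. MYL9, a regulatory light chain of smooth muscle and nonmuscle myosin on chromosome 20 from 36541484 to 36551447, had 8117, 7035 and 7224 reads in controls and 56084, 59652 and 60296 with ILL. Neither overlapped between the groups, and within each group the libraries were close together. The log2 fold change was 3.02 for TAGLN and 3.04 for MYL9 (standard error 0.05 each), or 8.11-fold and 8.25-fold. TAGLN moved from rank 694, 676 and 601 by reads in control libraries to 28, 30 and 27 with ILL, and MYL9 moved from 881, 938 and 909 to 47, 39 and 42. The ratio of MYL9 to TAGLN FPKM was 1.19 ± 0.087 in controls and 1.21 ± 0.0613 with ILL (SD, n = 3 each), a difference smaller than the spread between libraries.

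**Figure D2:**
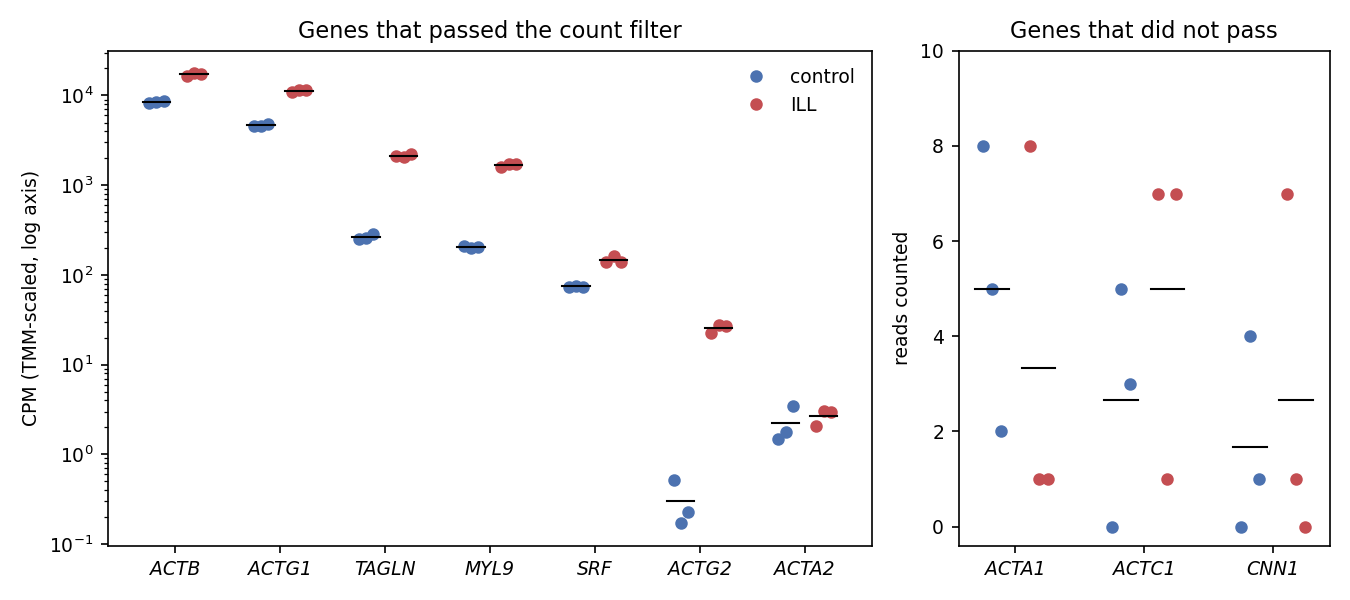
Left, CPM on a log axis of the 7 genes that passed the count filter, and right, reads counted for the 3 that did not, each point being 1 library (blue, control; red, ILL) and each black line a group mean. The ILL points lie above the control points for ACTB, ACTG1, TAGLN, MYL9, SRF and ACTG2, and the groups overlap for ACTA2, ACTA1, ACTC1 and CNN1, the last 3 of which stay at 8 reads or fewer.

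Per gene length, the order of levels in control libraries was ACTB at 4790 ± 80.0 FPKM, ACTG1 at 2350 ± 67.1, MYL9 at 75.2 ± 1.8, TAGLN at 63.2 ± 3.9, SRF at 17.8 ± 0.158 and ACTA2 at 1.28 ± 0.599 (SD, n = 3 each). Below them, ACTG2 (0.208 ± 0.127), ACTA1 (0.0929 ± 0.0519), ACTC1 (0.056 ± 0.0531) and CNN1 (0.0201 ± 0.0252) followed, and neighbours among these 4 overlapped. With ILL the order down to SRF was unchanged, at 9240 ± 357, 5440 ± 135, 591 ± 22.6, 489 ± 14.7 and 33.7 ± 2.95 FPKM. ACTG2 then followed at 16.8 ± 1.72 FPKM, ahead of ACTA2 at 1.46 ± 0.283 FPKM, and the libraries of these genes did not overlap. ACTC1, ACTA1 and CNN1 stayed at the bottom with overlapping libraries.

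The composition of the actin pool was computed within each library as a share of the summed FPKM of the 6 actins, which does not depend on how libraries are scaled to each other. ACTB made 67.1%, 67.5% and 66.7% of it in controls and 62.5%, 63.2% and 62.9% with ILL. ACTG1 made 32.9%, 32.5% and 33.2% in controls and 37.4%, 36.7% and 37.0% with ILL. Although ACTB itself was higher with ILL, its share was 4.24 percentage points lower, since ACTG1 differed by more, and neither share overlapped between groups. ACTG2 made 0.00292 ± 0.00183% of the pool in controls and 0.114 ± 0.00803% with ILL (SD, n = 3 each). The gene with the largest fold among the 10 thus remained a trace component of actin mRNA. ACTA2 made 0.0178 ± 0.00796% and 0.00988 ± 0.00162%, and these shares did not overlap between the groups.

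**Figure D3:**
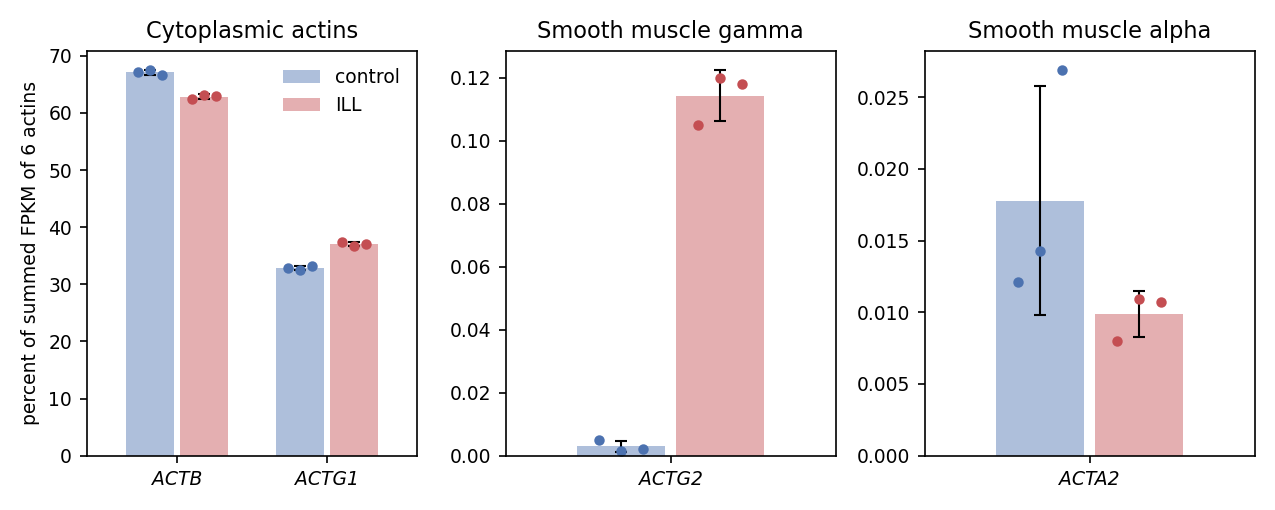
Share of the summed FPKM of the 6 conventional actins made by ACTB and ACTG1 (left), ACTG2 (middle) and ACTA2 (right), in percent on axes that start at 0 and differ between panels; bars are group means, error bars SD over 3 libraries and points single libraries (blue, control; red, ILL). The mean share of ACTB is 67.1% in controls and 62.9% with ILL, that of ACTG1 is 32.9% and 37.0%, and that of ACTG2 is 0.00292% and 0.114%.

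Relatives of TAGLN and MYL9 in the same protein families were also compared. TAGLN2, the transgelin of nonmuscle cells, fell by 1.02 on the log2 scale (adjusted p = 6.3e-16), a call that was lost without ILL replicate 1, and the ratio of TAGLN to TAGLN2 FPKM was 0.0825 ± 0.00388 in controls and 1.36 ± 0.0338 with ILL (SD, n = 3 each). The log2 fold changes of light chain relatives had the same sign as that of MYL9, at 1.11 for MYL12A (called higher), 0.66 for MYL6 and 0.23 for MYL12B (neither called). MYL9 reached the level of MYL12B, another regulatory light chain of nonmuscle myosin, with a ratio of 0.143 ± 0.00548 in controls and 1.01 ± 0.0732 with ILL. Against MYL12A the ratio went from 0.183 ± 0.00604 to 0.702 ± 0.0633, and against the essential light chain MYL6 from 0.0265 ± 0.00139 to 0.138 ± 0.0113.

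Actin genes resemble each other closely enough that reads could be counted on the wrong gene, so the overlap of their transcripts was measured. In coding sequence, ACTG2 is 84.1% identical to ACTB, with a longest identical run of 31 bases, and 82.4% identical to ACTG1, with a run of 24 bases. ACTB and ACTG1 are 91.3% identical, with a run of 59 bases. All stretches of 50, 100 and 150 bases of each gene's GENCODE 29 coding transcripts were then searched for exact copies in the transcripts of other genes. Of 2781 stretches of 50 bases in ACTG2, 2 (0.0719%) also occurred in the POTE genes POTEE, POTEF, POTEI and POTEJ, which carry an actin-like domain, and 0 in another conventional actin. For ACTB 6.66% and for ACTG1 2.68% of stretches of 50 bases were shared with some gene, but 0.728% and 0.34% with another conventional actin. At 150 bases ACTG2, ACTB and ACTG1 shared 0 stretches. The read length and the treatment of reads with several matches are not given in the sources used here, and exact copies do not measure reads placed with mismatches.

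The POTE genes and ACTBL2, which carry actin-like sequence, had few reads. They are not the genes that shared most with the cytoplasmic actins. ACTBP2, which shared the most stretches of 50 bases with ACTB (3.29%), was not in the count table. Reads of ACTG1P20, which shared the most with ACTG1 (0.917%), were not examined. POTEE had 0, 0 and 2 reads in controls and 2, 0 and 1 with ILL, and POTEF, POTEI and POTEJ had 0 reads in all 6 libraries. ACTBL2, an actin-like gene close to ACTB, had 72, 75 and 67 reads in controls and 23, 40 and 34 with ILL, and its fitted log2 change was -1.07 (standard error 0.35, adjusted p = 0.00899), a call that was lost without ILL replicate 1. ACTBL2 thus had fewer reads in the libraries in which ACTB had more.

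Overlap with neighbours rather than with other actins concerned ACTA2, TAGLN and ACTC1. Of ACTA2's stretches of 50 bases 41.3% were shared, with FAS or ACTA2-AS1, and of TAGLN's 13.2% were shared, with PCSK7. Of ACTC1's 9.08% were shared, mostly with the gene AC087457.1 on the opposite strand. Whether the counting used strand is not given in the sources used here, so reads in these stretches cannot be assigned with certainty. FAS, the death receptor gene beside ACTA2, had 626, 549 and 681 reads in controls and 588, 550 and 584 with ILL. PCSK7, a protease gene beside TAGLN, had 1211, 1289 and 1133 reads in controls and 1136, 1051 and 1103 with ILL, far fewer than TAGLN in the same libraries. Both were named after their overlap was seen, and neither was called (adjusted p = 0.714 and 0.361). SRF, CNN1 and MYL9 shared no stretch of any of the 3 lengths.

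Other genes known to be driven by SRF with MRTFs moved both ways, and more were called higher than lower. Of 31 cytoskeletal targets, all tested, 11 (35.5%) were higher and 3 (9.68%) lower with ILL, against 12.5% and 11.4% of all tested genes, with a median log2 fold change of 0.88. PDLIM5, a scaffold of Z-lines and stress fibres, rose by 2.26 log2 units (standard error 0.05, adjusted p = 1.7e-21). TPM4, a tropomyosin that coats actin filaments, rose by 1.89 log2 units (standard error 0.04, adjusted p = 1.9e-21), and WDR1, which helps cofilin to take filaments apart, rose by 1.61 log2 units (standard error 0.05, adjusted p = 2.4e-19). The 3 lower genes were TAGLN2 above, THBS1 (thrombospondin), which fell by 2.82 log2 units (standard error 0.06, adjusted p = 2.1e-22), and ANKRD1, an ankyrin repeat factor, which fell by 2.52 log2 units (standard error 0.08, adjusted p = 6.8e-19). THBS1 and ANKRD1 are also known targets of YAP and TEAD, as are CCN1, CCN2, AMOTL2 and AJUBA of the same list. CCN1 was at -0.58, CCN2 at -0.73, AMOTL2 at -0.85 and AJUBA at -0.28 log2 units, none of them called. A part of YAP and TEAD in these changes was not tested. By adjusted p alone, which called 36.2% of all tested genes higher and 36.9% lower, 20 of the 31 were higher and 10 lower.

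Of 20 smooth muscle contractile genes beyond those above, 15 were tested, 8 (53.3%) were higher (4 by limma on FPKM) and 2 (13.3%) lower, against 12.5% and 11.4% of all tested genes, and the median log2 fold change was 1.02. CALD1 (caldesmon), which regulates myosin's access to actin, rose by 2.12 log2 units (standard error 0.05, adjusted p = 8.7e-21), and TGFB1I1 (Hic-5), a focal adhesion protein, rose by 1.86 log2 units (standard error 0.06, adjusted p = 3.1e-18). DES, the muscle intermediate filament gene, rose by 1.75 log2 units (standard error 0.40, adjusted p = 0.000418), but from 31, 14 and 18 to 49, 83 and 70 reads. SMTN (smoothelin) fell by 1.08 log2 units (standard error 0.07, adjusted p = 3.1e-13), and CSRP2, a LIM protein of smooth muscle, fell by 1.71 log2 units (standard error 0.29, adjusted p = 1.3e-05). SYNPO2, among the 8 and named here for its low counts, had 5, 6 and 4 reads in controls and 27, 15 and 11 with ILL. It thus passed the count filter through its ILL libraries. With at least 10 counts in every library it could not be tested, and 7 genes of the list were higher. The set held genes of the same tissue that moved in opposite directions.

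**Figure D4:**
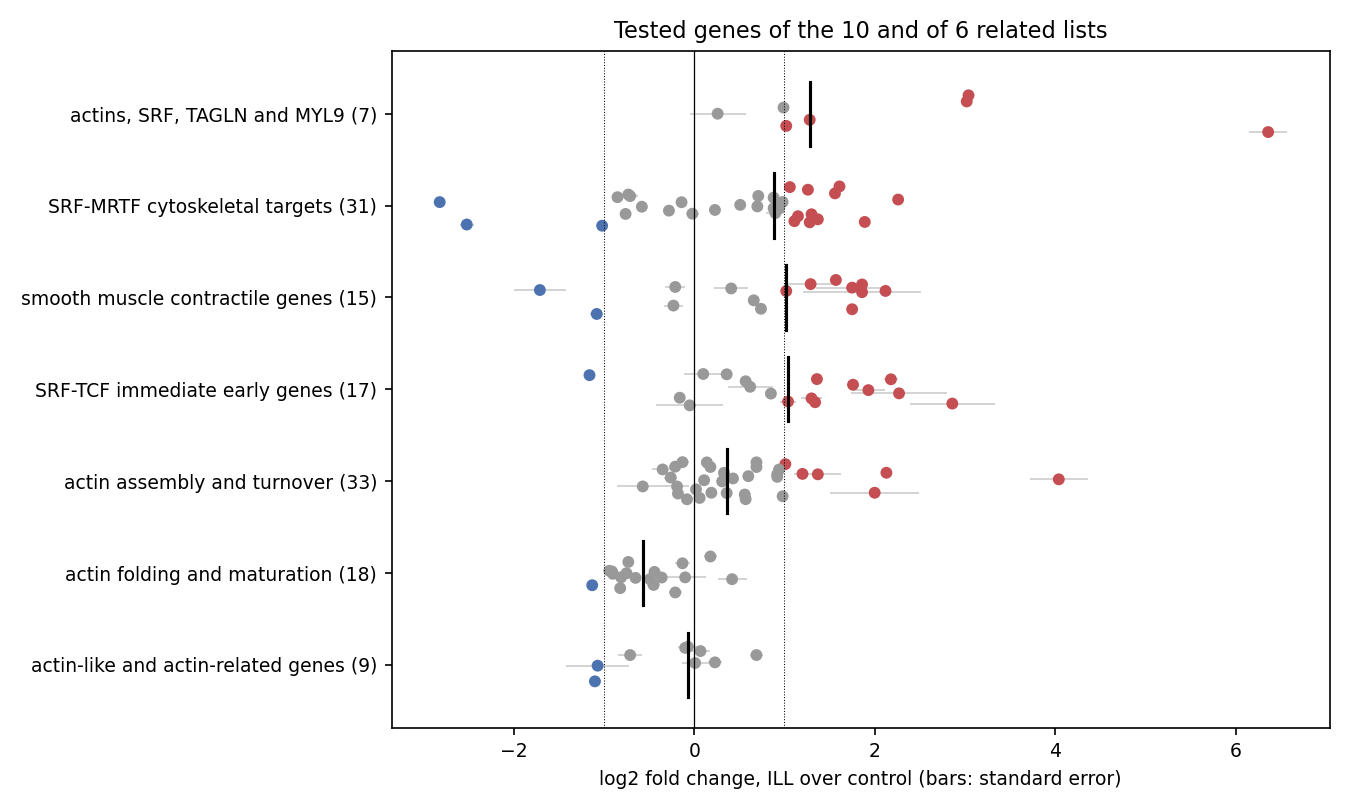
Log2 fold change, ILL over control, of the tested genes among the 10 (top row) and of 6 related lists, with the number tested in brackets; points are genes (red, called higher; blue, called lower; grey, not called), horizontal bars standard errors, black ticks medians and dotted lines the fold cutoffs. Medians lie at 0.88, 1.02 and 1.04 for the 3 SRF target lists, at 0.36 for actin assembly and at -0.57 for actin folding.

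CArG boxes were found in the promoter windows of 8 of 30 SRF-MRTF cytoskeletal targets and 3 of 16 smooth muscle genes with a window. In the other lists they were found in 2 of 15 immediate early genes, 0 of 31 assembly genes, 1 of 15 folding genes and 0 of 13 actin-like genes. They are shown for the named cytoskeletal and smooth muscle genes, 2 that rose and 1 that fell, to set beside the boxes of ACTG2 and ACTG1. The boxes of EGR1, a named immediate early gene that rose, are given after them. The other cytoskeletal genes with a box are named here for it. Their log2 fold changes were 0.88 (ACTN1), 0.88 (CNN2), 0.98 (FHL1), 0.71 (FHL2), 1.15 (FLNA), 1.30 (LPP) and 0.94 (TES). MYLK, the other smooth muscle gene with a box, was at 0.41. Of these, FLNA and LPP were called higher. SMTN was the only cytoskeletal or smooth muscle gene with a box and a negative log2 fold change.
TPM4 at -173: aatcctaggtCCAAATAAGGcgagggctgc
TGFB1I1 at -51: tggaggggagCCAAATTTGGcttgggtgaa
SMTN at -44: cggggccgggCCATATAAGGaaaagctagg

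The box of SMTN, which fell, has the same 10 bases as the box of SRF at -30. The box of TPM4, which rose, has the same bases as that of ACTC1, which had almost no reads. EGR1, which rose, held CCATATTAGG at -105 and CCATATATGG at -83. The latter has the same 10 bases as the box of ACTG1, which was higher with ILL. TPM4's stretch is chr19:16067355-16067384, TGFB1I1's chr16:31473144-31473173 and SMTN's chr22:31084942-31084971, all on the plus strand. The M-CAT element CATTCC, which TEAD factors bind, was searched on both strands as CATTCC and GGAATG. It was found in 18 of the 30 cytoskeletal targets, 6 of the 16 smooth muscle genes and 3 of the 7 genes with a window among the 10, against 16.7% of all genes and 15.2% of tested genes with a window. In the other lists it was found in 20.0% of immediate early genes, 3.23% of assembly genes, 13.3% of folding genes and 15.4% of actin-like genes. The cytoskeletal list was written with known YAP and TEAD targets in it. Of these, AJUBA, AMOTL2, ANKRD1, CCN2 and THBS1 held the element, so the share of that list is partly set by how it was written.

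The TCF branch of SRF targets was also measured. Of 19 immediate early genes 17 were tested, 9 (52.9%) were higher (5 or 6 by limma on FPKM) and 1 (5.88%) was lower, against 12.5% and 11.4% of all tested genes, and the median log2 fold change was 1.04. EGR4 rose by 2.86 log2 units (standard error 0.47, adjusted p = 6.3e-06), KLF4 by 2.18 log2 units (standard error 0.08, adjusted p = 5.6e-18) and EGR1 by 1.93 log2 units (standard error 0.18, adjusted p = 7.1e-10), all zinc finger transcription factors. EGR4 had only 20, 2 and 14 reads in controls against 84, 85 and 81 with ILL. NR4A3, also among the 9 and named here for its low counts, had 11, 9 and 6 reads against 60, 39 and 22. EGR4 and NR4A3 thus passed the count filter through their ILL libraries. With at least 10 counts in every library neither could be tested, and 7 genes of the list were higher. FOSL1, an AP-1 subunit, fell by 1.16 log2 units (standard error 0.05, adjusted p = 5.1e-16). FOS and FOSB, the best known members and named here after their values were seen, had log2 fold changes of 0.10 and -0.05 and were not called (adjusted p = 0.691 and 0.907).

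MRTFA and MRTFB, the coactivators of SRF, were named after their values were seen. Their log2 fold changes were -0.05 and -0.04, and neither was called (adjusted p = 0.679 and 0.594). MYOCD (myocardin), the SRF coactivator specific to smooth and cardiac muscle, had 0 reads in all 6 libraries. For a library taken alone, 0 reads allows up to 3 by counting error, and 0 in all 6 allows fewer per library.

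Genes for actin assembly and genes for actin folding had medians of opposite sign. Of 35 assembly and turnover genes 33 were tested, 6 (18.2%, against 12.5% of all tested genes) were higher (2 by limma on FPKM), 0 were lower by edgeR or DESeq2, and the median log2 fold change was 0.36. By adjusted p alone, which called 36.2% of all tested genes higher and 36.9% lower, 22 were higher and 4 lower. At an unadjusted p under 0.05, 4 were also lower. VIL1 (villin), which bundles actin in microvilli of epithelia, rose by 4.04 log2 units (standard error 0.32, adjusted p = 3.8e-11), GSN (gelsolin), which severs and caps filaments, by 2.13 log2 units (standard error 0.06, adjusted p = 1.8e-19) and TMOD2, a pointed-end capping protein, by 1.37 log2 units (standard error 0.26, adjusted p = 4.3e-05). VIL1 had only 11, 8 and 14 reads in controls against 193, 179 and 153 with ILL, so it passed the count filter through its ILL libraries and was not testable with at least 10 counts in every library. Among the 9 genes for subunits of the Arp2/3 complex, which nucleates branches, log2 fold changes ran from -0.13 to 1.01, and 8 were higher by adjusted p alone.

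Of 18 genes for actin folding and maturation 0 were higher by edgeR or DESeq2 (2 at an unadjusted p under 0.05) and 1 (5.56%, against 11.4% of all tested genes) was lower, with a median log2 fold change of -0.57. By adjusted p alone 2 were higher and 14 lower, a rule that called 36.2% of all tested genes higher and 36.9% lower. The lower gene was CCT2, a subunit of the CCT chaperonin through which new actin must pass, which fell by 1.13 log2 units (standard error 0.05, adjusted p = 1e-15). All 8 CCT subunits had log2 fold changes between -1.13 and -0.73, opposite in sign to ACTB and ACTG1, and all were lower by adjusted p alone. The 6 prefoldin subunits, which hand actin to CCT, ran from -0.65 to -0.13, and 5 were lower by adjusted p alone. Of the 16 actin-like and actin-related genes 9 were tested, 0 were higher by edgeR or DESeq2 (2 at an unadjusted p under 0.05) and 2 (22.2%) lower, with a median log2 fold change of -0.07. The lower ones were ACTBL2 above and ACTL6A, an actin-related subunit of chromatin remodelling complexes, which fell by 1.10 log2 units (standard error 0.07, adjusted p = 1.6e-13).

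The levels of tissue markers stand beside the smooth muscle genes. All 7 markers of biliary and other simple epithelium, among them KRT7 and KRT19, were detected, with a summed level of 9050 to 9290 CPM in controls and 9530 to 10100 CPM with ILL. Single markers differed in direction behind this sum. CDH1 (E-cadherin) was called higher at a log2 fold change of 2.07, KRT7 was at 0.64 and EPCAM at 0.24. KRT18 was at -0.82, SOX9 at -0.56, KRT19 at -0.18 and KRT8 at -0.16. The 4 smooth muscle markers summed to 0.427 to 0.798 CPM in controls and 1.57 to 2.88 CPM with ILL. Of these MYOCD had no read, MYH11, the smooth muscle myosin heavy chain, had at most 4 reads in any library, LMOD1 had 0 in each control and 6, 12 and 1 with ILL, and DES made most of the sum. Cells with ILL thus had TAGLN and MYL9 among their 50 most counted genes while MYH11 and CNN1 were nearly absent. The 4 heart markers summed to 1.22 to 2.13 CPM in controls and 6.97 to 7.78 CPM with ILL, most of it from NKX2-5 (47, 64 and 41 reads in controls, 234, 226 and 263 with ILL), with MYH6 and MYH7 at no more than 2 reads. The 4 skeletal markers summed to 0 to 0.171 CPM and 0 to 0.257 CPM, with MYOD1 and MYOG at 0. The 6 fibroblast markers summed to 12.1 to 14.2 CPM in controls and 16.8 to 18.4 CPM with ILL, most of it from COL1A1 (365, 328 and 417 reads in controls, 516, 583 and 457 with ILL). COL3A1 had 1, 3 and 1 reads in controls and 0 with ILL, and COL1A2 had 7, 11 and 12 and then 10, 2 and 0. The markers of other lineages were low, with the 3 endothelial markers summing to 1.0 to 1.65 and 1.69 to 1.91 CPM, and the 3 leukocyte markers to 0.171 to 0.735 and 0.203 to 0.715 CPM. Of the endothelial markers VWF, with 2, 13 and 0 reads in controls and 25, 23 and 13 with ILL, was called higher (log2 fold change 2.05). CDH5 was at 0.29 and PECAM1 at -0.89, neither called. The part of other cell types in the values of ACTG2, TAGLN and MYL9 was not tested.

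The genes most like ACTG2 and ACTB across the 6 libraries were found by the distance between their centred log2(CPM + 0.5) profiles, among 12042 tested genes outside the 10 with a mean of at least 1 CPM. Nearest to ACTG2 were GBP2 (distance 0.485), KLHDC7B (0.597), CEACAM5 (0.630), GDF15 (0.730) and TCIM (0.812). The added 0.5 compresses the profile of ACTG2, whose control libraries had 0.515, 0.171 and 0.226 CPM. In the fit these neighbours differed by 32.2, 50.5, 26.4, 25.1 and 26.5-fold in this order, against 82.3-fold for ACTG2. Nearest to ACTB were SSH3 (0.0496), SLC7A1 (0.0522), EIF4EBP1 (0.0589), MYO1D (0.0601) and B4GALT1 (0.0609). GBP2, a guanylate-binding protein, had 93, 40 and 61 reads in controls and 1815, 2104 and 2034 with ILL. Its control libraries stood in the same order as those of ACTG2, with replicate 1 highest and replicate 2 lowest. GBP2 was chosen for its nearness over these same libraries, controls included, so this shared order supports nothing further.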

How the data were processed

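RNA-seq libraries of HCCC9810 cells, 3 per group, were compared between 20 μM ILL and vehicle at 24 h, with groups and replicate numbers taken from the labels. The authors deposited unnormalized read counts listed by gene symbol, and a table of FPKM, each holding the 6 libraries separately. The deposited FPKM equal the count divided by gene length and library total for 100% of 88055 nonzero values within 0.1%. The submitters' processing notes name GRCh38 and DESeq2, while the aligner, counting program and annotation are not given in the sources used here.

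Counts were filtered with filterByExpr (13066 of 19470 genes left), scaled by TMM and tested with edgeR 4.0.16 in R 4.3.3 by its quasi-likelihood test with group as the only term, Benjamini-Hochberg adjustment and a biological coefficient of variation of 0.0717. The fold cutoffs of 2 and 0.5 follow the study's methods. The fit was tested on simulated data. Total counts of 34282764 to 37758569 leave the precision of most genes to the spread between libraries, while genes under about 20 reads are limited by counting, and limits given for 0 reads cover counting error only.

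The 10 genes and the 6 related lists were chosen, and the lists written by hand, with earlier results of these data known. Named genes are the 10, at most 3 called genes at each end of each list (mean CPM of 1 or more, groups not overlapping), the detected ACTBL2 and POTE genes, and the 5 nearest profiles to ACTG2 and to ACTB; exceptions are stated where they occur. One listed gene, POTEKP, was not analysed here, and ACTMAP was matched as C19orf54.

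Promoter windows come from RefSeq (GRCh38.p14). Gene positions, coding identity and shared stretches come from GENCODE release 29 on GRCh38, which no source names as the annotation of the counts. Alternatives were DESeq2 size factors or its Wald test (DESeq2 1.42.0), scaling by library size only, filters of none or of 10 counts in each library, a replicate block, leaving out each library, adjusted p alone, limma 3.58.1 on log2(FPKM + 1) or log2(FPKM + 0.1), and raw counts for isoform shares. Summing the 6 actins as 1 gene was chosen after seeing the data.

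Replicate numbers did not pair the libraries: deviations from the group means of same-numbered libraries correlated at 0.00116, -0.0149 and -0.0431. Protein sequences, proteins, qPCR and animal experiments were not analysed here. One further gene list is not reported.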

Additional observations from a re-analysis of the deposited data

How the results depend on the processing

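Of 374 values recomputed under the alternatives, 335 kept their direction and side of the threshold, or stayed within the stated margin, and none reversed. Between 4 and 6 of the 10 genes, 7 of them tested in the main fit, were called higher under every alternative and 0 lower. ACTB and SRF, which lie next to the fold cutoff, account for the difference in edgeR fits. The main fit called 12.5% of all tested genes higher and 11.4% lower. Nothing is read from how stable the count over the 10 is, because they were chosen on this contrast. With adjusted p alone, the SRF-MRTF cytoskeletal targets gave 20 higher and 10 lower, immediate early genes 2 lower, assembly genes 22 higher and 4 lower, folding genes 2 higher and 14 lower, and actin-like genes 2 higher. All genes gave 4726 higher and 4821 lower, against 1635 and 1485. Limma on FPKM called fewer genes: 4 smooth muscle genes higher, 2 assembly genes higher, 1 actin-like gene lower in each of its 3 settings, and 5 immediate early genes higher with a pseudocount of 1. With a pseudocount of 0.1 it gave 2 folding genes lower. Over all genes its settings gave 668, 909 and 680 higher and 923, 1247 and 929 lower. Scaling by library size only gave 2 folding genes lower. ACTG2's share differed by 0.111 percentage points per length and by 0.088 in raw counts. Leaving out 1 library at a time left 1 to 2 actin-like genes lower, and in this the loss was ACTBL2 without ILL replicate 1.

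With the replicate block, 5 of the 10 genes were higher, ACTG2's log2 fold change was 6.36, and all genes gave 1627 higher and 1484 lower. No call of the 10 genes or of a list count changed. ACTG2 could not be tested with at least 10 counts in every library, since control replicates 2 and 3 had 6 and 8 reads. Depth limits ACTA1, ACTC1 and CNN1 in every setting.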
